A study of Mus musculus with 9 samples.

Results

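The genes described here encode the machinery of nuclear transcription: the subunits of RNA polymerases I, II and III, of Mediator, the TBP-associated factors (TAFs) and the general transcription factors of the GTF2 and GTF3 families. They were taken as all protein-coding genes of GENCODE release M1 whose symbol starts with *Polr1*, *Polr2*, *Polr3*, *Med* or *Taf* followed by a number, *Gtf2* or *Gtf3*, so membership follows from the symbol, although the set was proposed with earlier results of these data known. There were 104 such genes among 22367 protein-coding genes, under 102 symbols, because *Med20* and *Taf9* each carried 2 gene identifiers. Each gene was scored by whether the middle of a BAP1 ChIP-Seq peak lay within 1 kb of any of its annotated transcriptional start sites (TSSs), which is called a gene-proximal peak below.

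The peaks were mapped in Ba/F3, a murine IL-3-dependent cell line of the B cell precursor lineage, grown with WEHI-conditioned medium as the source of IL-3. The list was made from 2 samples together: wild type Ba/F3 immunoprecipitated with an anti-BAP1 antibody, and Ba/F3 that stably expressed triple-FLAG-tagged murine BAP1, kept under 2 μg/mL puromycin, immunoprecipitated with anti-FLAG M2. Each was sequenced once, so the list has no replicates, it carries no height or p-value, and its depth is unknown. The 3 H2AK119ub samples and the 4 input samples of the series were not analysed here.

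BAP1 is a nuclear deubiquitinase that removes ubiquitin from H2AK119ub, the histone mark set by Polycomb repressive complex PRC1. RNA polymerase I makes the large ribosomal RNA, RNA polymerase II makes messenger RNA, and RNA polymerase III makes transfer RNA and other short RNAs. TFIID, built of TBP and TAFs, recognizes polymerase II promoters, the GTF2 factors assemble on it, and Mediator links this assembly to sequence-specific activators, while TFIIIA and TFIIIC (the GTF3 genes) serve polymerase III.

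BAP1 was listed at nearly all of these genes. A gene-proximal peak was present at 97 of the 104 genes (93.3%, 95% Wilson interval 86.8 to 96.7), and at 39.6% of all 22367 protein-coding genes, a set that includes the 104. The 7 genes without a peak were *Med12l*, *Med13*, *Taf6l*, *Taf7l*, *Taf9b*, *Gtf2a1l* and *Gtf2ird1*. No test was made between the 104 genes and the rest, and the intervals given here and below cover counting error only.

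The sequences below show what lay under these peaks. Every peak of the list was 200 bp wide, and each sequence is printed 5′ to 3′ on the strand of the gene, in lower case, with exact matches to 9 searched motifs in capitals. The searched motifs were CCGGAAG for ETS factors, CGCATGCG for NRF1, AAGATGGCG for YY1, GGGGCGGGG for SP/KLF factors, ATTGG for NF-Y, TGACGTCA for the cAMP response element (CRE), CACGTG for the E-box, ACTACAATT for THAP11/ZNF143 and TATAAA for the TATA box. They were searched on both strands, no motif contains another, and matches that overlap or touch are printed as 1 run of capitals. The first set holds the largest subunit or central factor of each complex, in build mm9 (NCBIM37). *Polr1a* encodes the largest subunit of RNA polymerase I, with its peak at chr6:71858934-71859133 (plus strand). *Polr2a* encodes the largest subunit of RNA polymerase II, peak at chr11:69572105-69572304 (minus strand). *Polr3a* encodes the largest subunit of RNA polymerase III, peak at chr14:25306214-25306413 (minus strand). *Med14* is the backbone of Mediator, peak at chrX:12339060-12339259 (minus strand). *Taf1* is the largest subunit of TFIID, peak at chrX:98727828-98728027 (plus strand). *Gtf2b* is TFIIB, which bridges TFIID and polymerase II, peak at chr3:142428047-142428246 (plus strand). *Gtf3c1* is the largest subunit of TFIIIC, peak at chr7:132851150-132851349 (minus strand).
Polr1a: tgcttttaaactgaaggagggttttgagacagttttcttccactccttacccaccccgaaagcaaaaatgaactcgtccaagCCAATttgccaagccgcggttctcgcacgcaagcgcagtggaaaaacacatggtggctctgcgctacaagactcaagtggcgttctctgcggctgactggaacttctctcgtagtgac
Polr2a: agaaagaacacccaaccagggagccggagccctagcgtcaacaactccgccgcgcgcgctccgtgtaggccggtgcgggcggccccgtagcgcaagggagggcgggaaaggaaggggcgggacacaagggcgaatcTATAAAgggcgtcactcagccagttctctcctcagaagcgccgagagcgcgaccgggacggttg
Polr3a: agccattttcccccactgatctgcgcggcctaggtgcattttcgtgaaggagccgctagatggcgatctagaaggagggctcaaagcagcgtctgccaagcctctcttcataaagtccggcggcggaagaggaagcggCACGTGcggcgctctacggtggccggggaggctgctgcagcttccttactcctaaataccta
Med14: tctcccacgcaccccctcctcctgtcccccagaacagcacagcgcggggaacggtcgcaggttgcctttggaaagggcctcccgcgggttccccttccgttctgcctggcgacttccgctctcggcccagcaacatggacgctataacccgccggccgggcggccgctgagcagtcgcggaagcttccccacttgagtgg
Taf1: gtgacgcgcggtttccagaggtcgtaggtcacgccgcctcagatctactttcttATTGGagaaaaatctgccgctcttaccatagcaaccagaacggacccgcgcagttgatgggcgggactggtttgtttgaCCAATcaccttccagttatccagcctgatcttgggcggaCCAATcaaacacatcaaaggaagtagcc
Gtf2b: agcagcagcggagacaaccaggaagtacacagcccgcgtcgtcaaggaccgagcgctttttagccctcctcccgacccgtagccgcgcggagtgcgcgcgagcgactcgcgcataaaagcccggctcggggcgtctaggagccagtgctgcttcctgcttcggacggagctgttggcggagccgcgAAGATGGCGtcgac
Gtf3c1: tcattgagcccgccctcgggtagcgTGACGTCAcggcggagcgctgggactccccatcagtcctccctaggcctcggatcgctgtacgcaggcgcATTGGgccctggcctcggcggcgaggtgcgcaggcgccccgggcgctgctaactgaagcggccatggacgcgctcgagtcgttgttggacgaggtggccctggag

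The letters differed between these 7 peaks. In *Polr2a* a TATA box was centred 27 bp upstream of the TSS, in *Gtf2b* the YY1 motif was centred at +47 bp, and in *Gtf3c1* a CRE was centred at −27 bp. *Taf1* held 3 NF-Y matches, at −189, −110 and −71 bp, and *Polr1a* held 1 at −29 bp. *Polr3a* held an E-box at −5 bp, and *Med14* held none of the 9 motifs.

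A second set shows peaks with motifs that recur below. *Taf12*, a histone-fold subunit of TFIID, held 2 ETS matches and an E-box in its peak at chr4:131830162-131830361 (plus strand). *Polr1c*, a subunit common to polymerases I and III, held 1 ETS match in its peak at chr17:46384908-46385107 (minus strand). The middle of that peak lay between the TSSs of *Polr1c* and *Yipf3*. *Taf5*, a WD40-repeat subunit of TFIID, held the YY1 motif in its peak at chr19:47142069-47142268 (plus strand). *Med11*, a subunit of the Mediator head, held the THAP11/ZNF143 motif in its peak at chr11:70265318-70265517 (plus strand).
Taf12: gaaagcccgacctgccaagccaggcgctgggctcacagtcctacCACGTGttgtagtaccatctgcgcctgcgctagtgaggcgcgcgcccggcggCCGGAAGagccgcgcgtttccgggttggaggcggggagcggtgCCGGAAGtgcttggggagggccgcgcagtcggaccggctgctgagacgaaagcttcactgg
Polr1c: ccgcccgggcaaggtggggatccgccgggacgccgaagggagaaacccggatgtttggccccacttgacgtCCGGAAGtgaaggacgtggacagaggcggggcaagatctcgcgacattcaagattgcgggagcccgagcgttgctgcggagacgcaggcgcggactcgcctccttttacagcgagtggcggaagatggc
Taf5: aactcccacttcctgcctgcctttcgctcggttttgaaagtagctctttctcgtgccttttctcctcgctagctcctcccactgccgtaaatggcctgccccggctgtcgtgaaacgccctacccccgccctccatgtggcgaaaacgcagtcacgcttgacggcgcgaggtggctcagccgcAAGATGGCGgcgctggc
Med11: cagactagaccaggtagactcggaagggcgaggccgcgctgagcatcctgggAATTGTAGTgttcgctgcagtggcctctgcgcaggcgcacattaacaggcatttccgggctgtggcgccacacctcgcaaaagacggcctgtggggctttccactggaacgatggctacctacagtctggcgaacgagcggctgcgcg

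The third set holds 3 pairs of paralogs in which BAP1 was listed at a single gene, with the peak of the bound gene and the 200 bp around the TSS of the longest transcript of the unbound gene. For *Taf6*, a TFIID subunit, and *Taf6l*, its counterpart in SAGA-type acetyltransferase complexes, these were the peak at chr5:138628359-138628558 (minus strand) and the window at chr19:8858386-8858585 (minus strand). For *Gtf2a1*, which encodes the large chain of TFIIA, and *Gtf2a1l*, its counterpart known from germ cells, these were the peak at chr12:92828442-92828641 (minus strand) and the window at chr17:89067900-89068099 (plus strand). For the kinase module subunits *Med13l* and *Med13*, these were the peak at chr5:119010502-119010701 (plus strand) and the window at chr11:86171004-86171203 (minus strand).
Taf6: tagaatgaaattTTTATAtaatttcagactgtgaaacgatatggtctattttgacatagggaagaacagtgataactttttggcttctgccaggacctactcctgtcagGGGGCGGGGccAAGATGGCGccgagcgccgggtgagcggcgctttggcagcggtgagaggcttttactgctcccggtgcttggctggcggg
Taf6l: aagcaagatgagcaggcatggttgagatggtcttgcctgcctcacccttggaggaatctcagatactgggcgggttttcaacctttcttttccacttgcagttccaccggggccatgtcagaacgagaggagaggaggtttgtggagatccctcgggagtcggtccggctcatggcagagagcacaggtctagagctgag
Gtf2a1: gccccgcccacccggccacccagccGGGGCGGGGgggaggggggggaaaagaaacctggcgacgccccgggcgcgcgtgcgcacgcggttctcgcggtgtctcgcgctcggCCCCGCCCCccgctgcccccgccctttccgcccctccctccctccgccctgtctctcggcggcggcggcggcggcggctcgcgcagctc
Gtf2a1l: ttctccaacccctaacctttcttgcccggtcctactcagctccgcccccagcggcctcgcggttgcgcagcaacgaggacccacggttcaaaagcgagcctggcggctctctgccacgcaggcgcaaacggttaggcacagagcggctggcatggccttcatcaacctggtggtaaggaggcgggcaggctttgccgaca
Med13l: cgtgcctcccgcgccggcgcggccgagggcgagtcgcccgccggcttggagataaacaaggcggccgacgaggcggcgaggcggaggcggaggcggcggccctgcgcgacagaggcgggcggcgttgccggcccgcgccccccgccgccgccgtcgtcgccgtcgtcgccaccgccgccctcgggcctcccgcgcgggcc
Med13: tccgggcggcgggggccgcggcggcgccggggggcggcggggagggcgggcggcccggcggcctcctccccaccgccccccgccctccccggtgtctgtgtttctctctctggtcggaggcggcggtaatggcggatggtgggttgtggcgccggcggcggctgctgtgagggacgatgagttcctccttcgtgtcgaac

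The *Taf6* peak held a YY1 motif at +20 bp, an SP/KLF motif at +9 bp and TATA letters on the opposite strand at −90 bp, and *Gtf2a1* held 2 SP/KLF matches. The 3 windows printed here and the *Med13l* peak held none of the 9 motifs. Of the 4 windows of unbound genes not printed, that of *Taf9b* held SP/KLF motifs and an E-box, that of *Taf7l* held an E-box, and those of *Med12l* and *Gtf2ird1* held none. The *Taf6l* window had 6 CpG dinucleotides and a G+C content of 55.5%, against 28 and 77% in the *Med13* window, so the 2 windows without a peak lay far apart in base composition.

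All RNA polymerase genes had a gene-proximal peak. Over all protein-coding genes the share was 39.6%, and over those with a promoter CpG ratio of 0.6 or more (CpG-rich promoters) it was 70.2%. The *Polr1* interval holds the latter share, and those of *Polr2* and *Polr3* lie above it. A peak was present at 5 of 5 *Polr1*, 12 of 12 *Polr2* and 10 of 10 *Polr3* genes, the lower Wilson bounds being 56.6%, 75.8% and 72.2%. These included both largest, catalytic subunits of each enzyme, and the peak middle lay 13 bp upstream of the TSS of *Polr1a*, 24 bp upstream at *Polr1b*, 66 bp at *Polr2a*, 58 bp at *Polr2b*, 46 bp at *Polr3a* and 95 bp at *Polr3b*. The 5 subunits common to the 3 enzymes (*Polr2e*, *Polr2f*, *Polr2h*, *Polr2k* and *Polr2l*) all had a peak, and so did *Polr1c* and *Polr1d*, the assembly pair of polymerases I and III. Among the *Polr1* genes the peak nearest to its TSS was that of *Polr1c* (−5 bp) and the farthest that of *Polr1d* (+129 bp). For *Polr2* these were *Polr2j* (−6 bp) and *Polr2d* (−100 bp), and for *Polr3* they were *Polr3d* (−8 bp) and *Polr3b*.

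**Figure D1:**
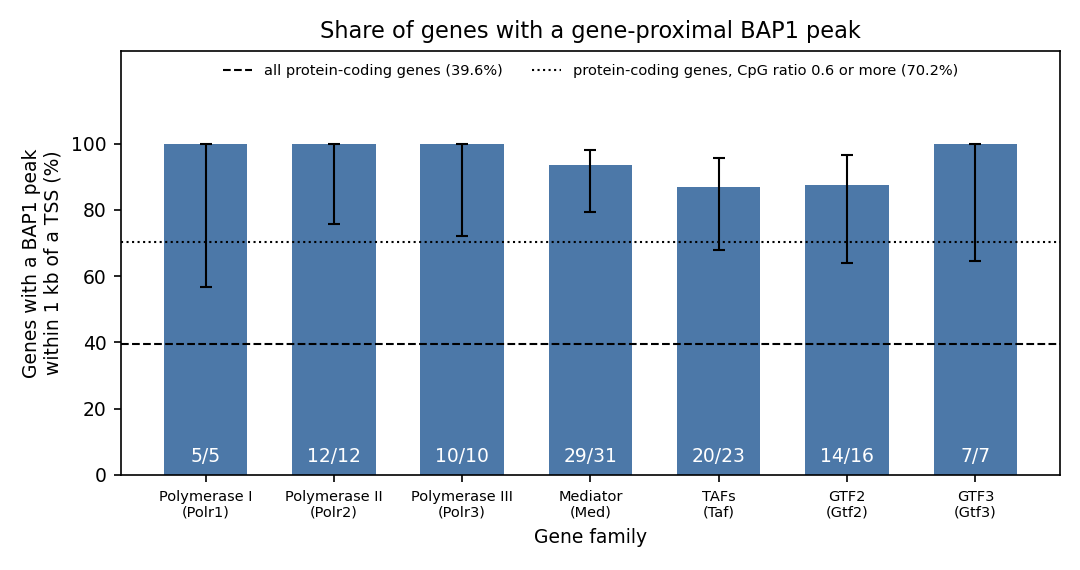
Share of genes with a BAP1 peak middle within 1 kb of a TSS (y axis, percent) in each of 7 gene families (x axis), with 95% Wilson intervals as error bars and the counts in the bars. The dashed line marks all protein-coding genes (39.6%) and the dotted line those with a promoter CpG ratio of 0.6 or more (70.2%), and the bars run from 87% for the TAFs to 100% for the polymerases and GTF3.

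Mediator genes had a peak in 29 of 31 cases (93.5%, 79.3 to 98.2). Of all protein-coding genes 39.6% had a peak, and of those with CpG-rich promoters 70.2% had a peak. All 8 head, 7 middle and 5 tail genes had one, as did the backbone gene *Med14* and the 6 genes assigned to no module here (*Med19* and *Med26* to *Med30*). *Med20* enters the head and Mediator counts under both of its identifiers, which share the same peak. *Med1*, the subunit that binds nuclear receptors, had its peak 55 bp upstream of a TSS. The peak nearest to its TSS was that of *Med27*, with the middle exactly on it, and the farthest was that of *Med13l*, at −126 bp. Both Mediator genes without a peak encode kinase module subunits, the part that joins Mediator reversibly and carries CDK8 or CDK19. Of its 4 genes in this set, *Med12* and *Med13l* had a peak and *Med12l* and *Med13* had none (50%, 15 to 85). That interval holds both the 39.6% and the 70.2%. The module genes with other symbols, *Cdk8*, *Cdk19* and *Ccnc*, all had a peak.

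Among the TAFs, 20 of 23 genes had a peak (87%, 67.9 to 95.5). Of protein-coding genes with CpG-rich promoters 70.2% had a peak, a share within the interval, and of all protein-coding genes 39.6% had a peak. TFIID subunits had one in 15 of 17 cases, the exceptions being *Taf7l* and *Taf9b*. *Taf9* enters the TFIID and TAF counts under both of its identifiers, which share the same peak. *Taf1b*, *Taf1c* and *Taf1d*, which join TBP in SL1 at ribosomal RNA promoters of polymerase I, all had one, as did *Taf15*, an RNA-binding protein of the FET family. Of the TAF-like subunits of SAGA-type complexes, *Taf5l* had a peak and *Taf6l* had none. The peak middle was exactly on the TSS at *Taf8* and farthest from it at *Taf9*, at −276 bp, while at *Taf1* it lay at −145 bp.

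The GTF2 genes had a peak in 14 of 16 cases (87.5%, 64 to 96.5). The interval again holds the 70.2% of genes with CpG-rich promoters that had a peak, while 39.6% of all protein-coding genes had a peak. TFIIB, both genes each of TFIIE and TFIIF, and the 5 genes of the TFIIH core, which unwinds promoter DNA and takes part in nucleotide excision repair, all had one. Of the 3 TFIIA genes, *Gtf2a1* and *Gtf2a2* had a peak and *Gtf2a1l* had none. Of the 3 genes of the TFII-I family, which bind DNA in a sequence-specific way, *Gtf2i* and *Gtf2ird2* had a peak and *Gtf2ird1* had none. The extremes in position were *Gtf2e1* (−1 bp) and *Gtf2h1* (−327 bp).

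All 7 GTF3 genes had a peak, with a lower Wilson bound of 64.6%. Their interval holds the share of protein-coding genes with CpG-rich promoters (70.2%) but not that of all protein-coding genes (39.6%). The 7 genes are *Gtf3a*, the zinc finger factor TFIIIA, and the 6 TFIIIC subunits *Gtf3c1* to *Gtf3c6*. *Gtf3c4* had its peak at −1 bp, *Gtf3c1* at +44 bp and *Gtf3c6* at +817 bp, inside an intron. *Gtf3c6* was the gene nearest to the 1 kb limit from within, and *Taf6l*, with its nearest peak 2356 bp away, was the nearest from outside. Apart from *Gtf3c6*, no nearest peak of the 104 genes lay between 327 bp (*Gtf2h1*) and 2356 bp.

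Genes that work with these complexes but carry other symbols were also bound in nearly all cases. Of 25 such genes, 24 had a gene-proximal peak (96%, 80.5 to 99.3), beside 39.6% of all protein-coding genes and 70.2% of those with CpG-rich promoters, and the list was drawn up with earlier results known. They comprised *Tbp* and *Tbpl1*, the 5 remaining TFIIH genes including the helicases *Ercc2* and *Ercc3*, *Cdk8*, *Cdk19* and *Ccnc* of the Mediator kinase module, 5 genes of the polymerase I machinery, 4 of polymerase III and TFIIIB, and 5 of SNAPc, which acts at small nuclear RNA genes. The exception was *Tbpl2*, a TBP paralog known from oocytes, whose nearest peak lay 310670 bp away. *Ubtf*, the polymerase I factor UBF, had 6 gene-proximal peaks, while none of the 104 genes had more than 2.

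The genes without a peak were each listed in a pair with a paralog that had a peak. Of 11 pairs of paralogs, drawn up with earlier results known and thus a description only, 8 had a peak at 1 gene only, 3 had peaks at both genes and 0 had none at either. *Gtf2ird1* counts in 2 of the 8, with *Gtf2i* and with *Gtf2ird2*, and these last genes, both with a peak, were not listed as a pair. Other related genes, such as the largest subunits of the polymerases, were not paired either. The listed pairs bound at both genes were *Taf4a* and *Taf4b* (nearest peak 169 and 44 bp from the TSS), *Taf5* and *Taf5l* (69 and 64 bp), and *Polr3g* and *Polr3gl* (29 and 36 bp), which encode alternative forms of the same polymerase III subunit. *Taf4b* is known for its role in germ cells, and it carried 2 peaks.

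**Figure D2:**
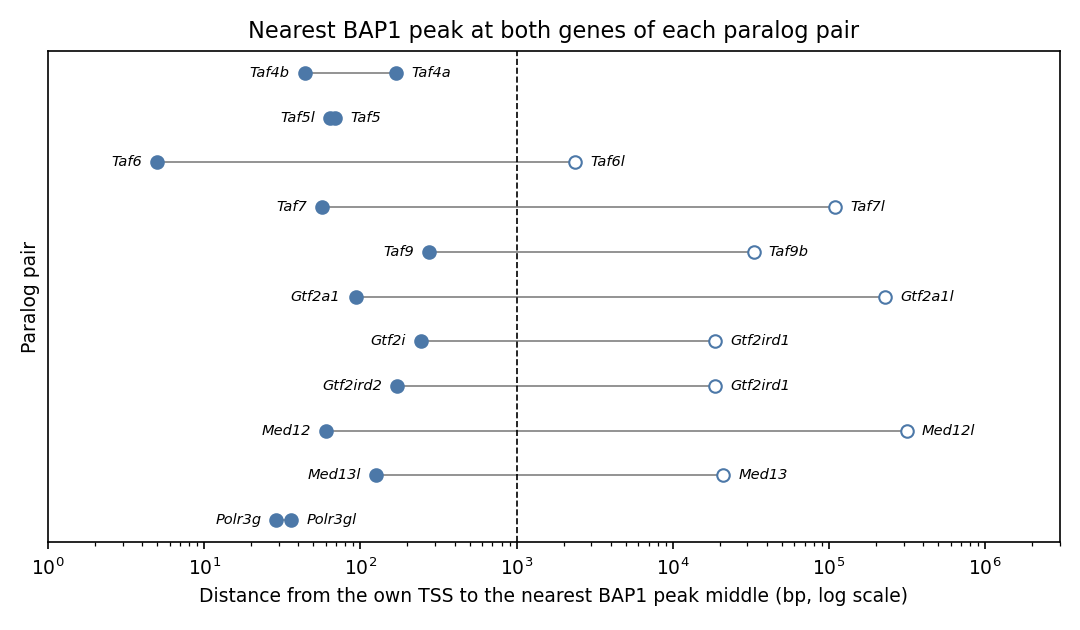
Distance in bp from the nearest of the gene's own TSSs to the nearest BAP1 peak middle (x axis, log scale) for both genes of 11 paralog pairs (rows). Filled points are genes with a gene-proximal peak, open points are genes without, and a dashed line marks 1 kb. For *Med13* the TSS used lies inside the gene and is not that of the longest transcript. In 8 rows the points lie on opposite sides of the line, from 2356 bp at *Taf6l* to 314492 bp at *Med12l* for the open points.

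The distance to the nearest peak varied widely among the 7 unbound genes. *Taf6l*, on the minus strand at chr19:8848984-8858486, had a peak 2356 bp upstream, with no TSS of a protein-coding gene within 1 kb of that peak. *Gtf2ird1*, on the minus strand at chr5:134833539-134932581, had its nearest peak 18626 bp downstream of a TSS and inside the gene. *Med13*, on the minus strand at chr11:86080535-86171104, had its nearest peak 20996 bp downstream of the nearest of its 4 TSSs, at the TSS of *Ints2* and outside the gene. That TSS of *Med13* lies inside the gene. The TSS of its longest transcript, at 86171104, lies farther from the peak.

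The other unbound genes lay farther off, measured like *Med13* from the nearest of their annotated TSSs. The order was not computed from the TSSs of the longest transcripts. *Taf9b*, at chrX:103402222-103416497 on the minus strand, was 32924 bp from a peak at *Pgk1*, and *Taf7l*, a TAF known from male germ cells, at chrX:130994657-131011029 on the same strand, was 109146 bp from a peak at *Rpl36a*. *Gtf2a1l*, at chr17:89068000-89114492 on the plus strand, was 228098 bp from a peak at *Foxn2*. *Med12l*, at chr3:58810900-59122332 on the plus strand, was 314492 bp from a peak at *Siah2*. In these 4 cases, as at *Med13*, the nearest peak was gene-proximal for another gene.

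At their partners the peak was close to the TSS. *Taf6* had peaks at 2 of its TSSs, at −5 and −20 bp, with the middles 240 bp apart. The nearest peak lay 57 bp from the TSS at *Taf7*, 60 bp at *Med12*, 93 bp at *Gtf2a1*, 126 bp at *Med13l*, 172 bp at *Gtf2ird2*, 244 bp at *Gtf2i* and 276 bp at *Taf9*. *Gtf2i*, *Gtf2ird1* and *Gtf2ird2* lie close together on chromosome 5, in the region whose human counterpart is lost in Williams-Beuren syndrome, and *Gtf2ird1* alone of these had no gene-proximal peak.

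Promoter CpG content differed among the genes without a peak. The CpG ratio, observed over expected within 500 bp of the TSS in both directions, was 0.326 at *Taf6l*, 0.497 at *Gtf2a1l*, 0.608 at *Gtf2ird1*, 0.679 at *Taf7l*, 0.848 at *Taf9b*, 0.870 at *Med12l* and 0.872 at *Med13*. Their median of 0.679 compares with 0.784 (quartiles 0.686 and 0.853) for the 97 genes with a peak, and the ranges of both groups overlapped. Over the other protein-coding genes the medians were 0.764 with and 0.296 without a peak.

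CpG-rich promoters made up most of the set. With a CpG ratio of 0.6 or more, 89 of 94 genes had a peak (94.7%, 88.1 to 97.7), and of all protein-coding genes with such promoters 70.2% had one. Below 0.6, 8 of 10 genes had a peak (80%, 49 to 94.3), and 13.2% of all such protein-coding genes did. The 8 were *Gtf2h4*, *Polr2g*, *Med24*, *Taf1b*, *Polr3gl*, *Polr1e*, *Polr1b* and *Gtf3c3*, with ratios of 0.462 to 0.573. The shares of bound genes among the 104 thus exceeded those of all genes in both CpG classes, with 10 genes in the lower class.

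**Figure D3:**
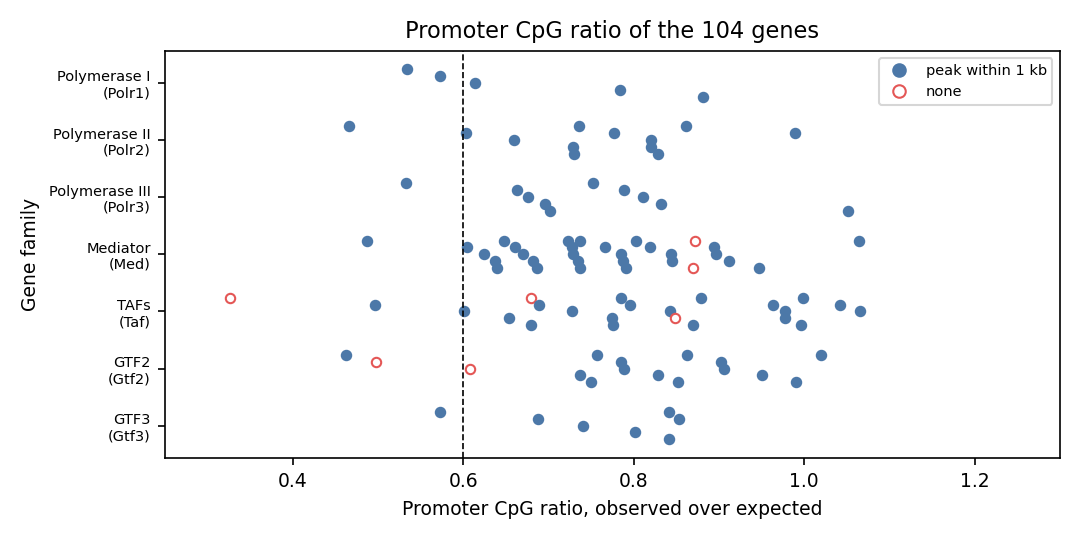
Promoter CpG ratio, observed over expected (x axis), of each of the 104 genes by family (rows), with filled points for genes with a BAP1 peak within 1 kb of a TSS, open points for genes without, and a dashed line at 0.6. The 7 open points run from 0.326 to 0.872, and overlap the filled points, which run from 0.462 to 1.065.

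Of the 5 genes on chromosome X, *Taf1*, *Med12* and *Med14* had a peak and *Taf7l* and *Taf9b* had none (60%, 23.1 to 88.2). Of all 932 protein-coding genes on this chromosome 23.6% had a peak. The interval holds that share.

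The peaks lay close to the TSS. The middle of the nearest peak lay at a median of −32 bp from the TSS (quartiles −61 and −3), and the median was also −32 bp (quartiles −74 and −1) at the other 8753 bound protein-coding genes. It was upstream in 75 of 97 genes (77.3%, 68 to 84.5) and in 75.1% of all bound protein-coding genes. The 200 bp interval covered the gene's own TSS in 86 of 97 genes (88.7%, 80.8 to 93.5) and in 77.7% of all bound genes, a share below the interval, and the difference was not tested. In 87 genes the middle lay within 100 bp of the TSS, and the farthest were *Gtf2h1* upstream and *Gtf3c6* downstream.

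**Figure D4:**
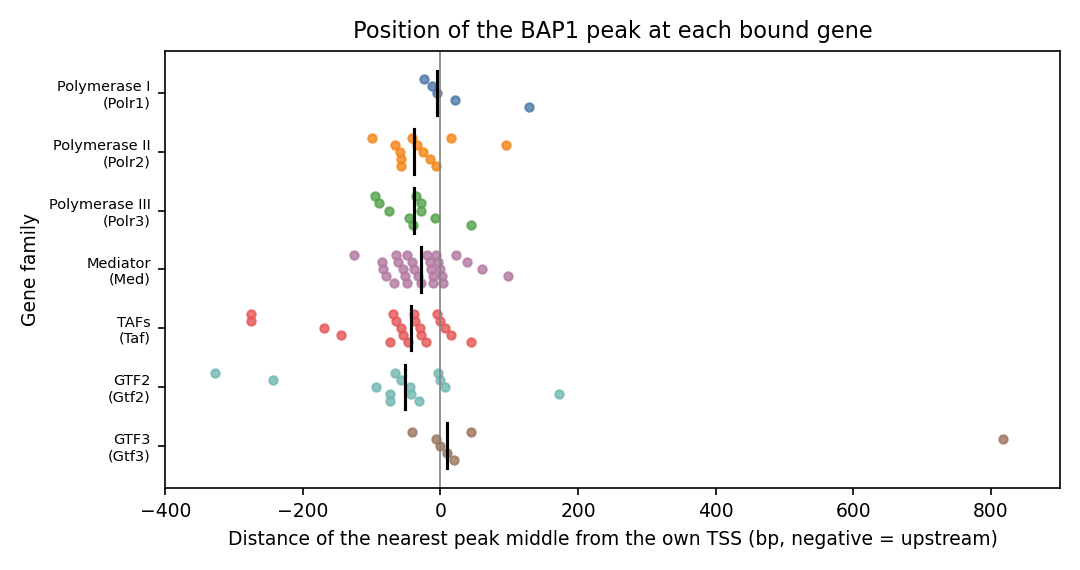
Distance of the nearest BAP1 peak middle from the gene's own TSS (x axis, bp, negative upstream) for the 97 bound genes by family (rows), with black bars at the family medians. The medians lie between −51.5 bp (GTF2) and +10 bp (GTF3), and *Gtf3c6* stands alone at +817 bp.

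By the annotation, the peak middle fell outside the gene in 64 cases, in a non-coding part of an exon in 27, in an intron in 5 and in a coding exon in 1, *Med16*. The family medians ran from −51.5 bp in GTF2 and −43 bp in the TAFs, over −38 bp in *Polr2* and *Polr3* and −28 bp in Mediator, to −5 bp in *Polr1* and +10 bp in GTF3. The quartiles of the 7 GTF3 values, −3.5 and 32 bp, lay above those of *Polr2*, *Polr3*, the TAFs and GTF2.

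A second gene-proximal peak was present at 21 of 97 genes (21.6%, 14.6 to 30.8), and at 25.5% of all bound protein-coding genes. In the polymerases these were *Polr1d*, *Polr2i*, *Polr3d*, *Polr3e* and *Polr3g*. In Mediator they were *Med13l*, *Med14*, *Med16*, *Med19*, *Med26* and *Med29*. Among the TAFs they were *Taf1b*, *Taf4b*, *Taf5l*, *Taf6* and *Taf11*, and among the general factors *Gtf2a2*, *Gtf2f1*, *Gtf2i*, *Gtf2ird2* and *Gtf3c4*.

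The middles of the 2 peaks were 106 bp (*Taf4b*) to 1542 bp (*Taf11*) apart, with a median of 261 bp. When peaks within 500 bp were merged, 3 genes kept 2 peaks. *Taf11*, a histone-fold subunit of TFIID, had both peaks on annotated TSSs of its own, at −21 and −45 bp from the nearest of them. *Gtf2i* had peaks at −244 and +826 bp, 1452 bp apart, and *Polr1d* at +129 and −472 bp, 897 bp apart.

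Some of the promoters were shared. In 29 of 97 genes (29.9%, 21.7 to 39.6) the nearest peak also lay within 1 kb of a TSS of another protein-coding gene, as in 24.4% of all bound protein-coding genes, a share within the interval. In 29 of these 29 genes the nearest such neighbor was on the opposite strand. That share was not computed over all bound protein-coding genes, so it cannot be called particular to this set. *Med20* and *Taf9* each enter these counts with 2 identifiers. Examples, chosen after their values were seen, are *Med22* with the ribosomal protein gene *Rpl7a*, *Med29* with *Paf1*, *Gtf2h3* with *Eif2b1*, *Polr2h* with the chloride channel gene *Clcn2* and *Polr2l* with the tetraspanin gene *Tspan4*.

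In 9 of the 29 genes, a share not computed over all bound genes, the neighbor's TSS was the nearer. These were *Gtf2h1*, *Gtf2h3*, *Polr2b*, *Polr2f*, *Polr2h*, *Polr2l*, *Polr3c* and both identifiers of *Taf9*. At *Taf9* the peak lay 276 bp upstream of its TSS and 8 bp upstream of that of *Rad17*, a checkpoint gene. At *Gtf2h1* it lay 327 bp upstream, and 73 bp upstream of *Hps5*. At *Polr1c* the distances were near equal, −5 bp and −21 bp to *Yipf3*. A single 200 bp interval at such a promoter cannot be assigned to either gene.

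ETS motifs were the most frequent of the 9 searched. CCGGAAG was present in 32 of the 95 distinct peaks nearest to these genes (33.7%, 25 to 43.7), in 20.1% of the 9957 other gene-proximal peaks and in 9.36% of the 200 bp windows around the TSS of each protein-coding gene. The 9957 are all peaks with the middle within 1 kb of a TSS of any annotated gene, non-coding genes and second or further peaks included. The 95 are only the peaks nearest to a TSS of the genes described here. The sets were thus chosen in unlike ways, for this and the other motifs, and the differences were not tested. The 40 matches were centred from −152 to +54 bp from the TSS, with a median of −25 bp, and 20 of them read on the strand of the gene. They were present in all the families, among others in *Polr1c*, *Polr2c*, *Polr3b*, *Med8*, *Med17*, *Taf2*, *Taf12*, *Gtf2f1* and *Gtf3a*. *Med10* held 3 overlapping or adjacent matches between −28 and −18 bp.

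**Figure D5:**
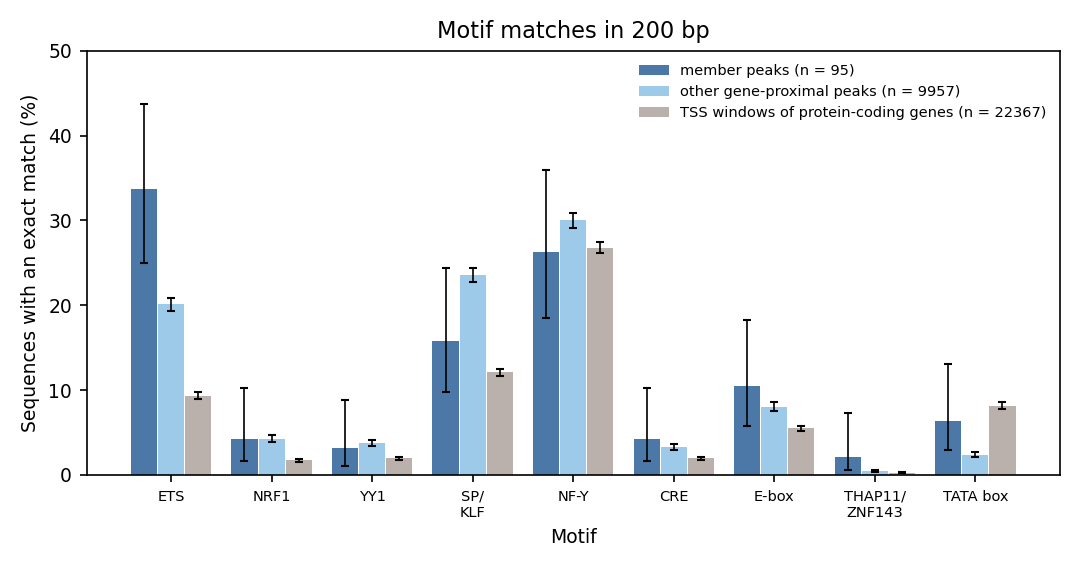
Share of 200 bp sequences with an exact match on either strand (y axis, percent) for 9 motifs (x axis), with 95% Wilson intervals. The sets are the nearest peaks of the genes described here (dark), other gene-proximal peaks (light) and TSS windows of protein-coding genes (grey). The light set holds peaks near any annotated gene, and not only nearest peaks. ETS stands at 33.7%, 20.1% and 9.36%, while for NF-Y the 3 bars lie between 26.3% and 30%.

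The other motifs were rarer or as frequent elsewhere. NF-Y letters were present in 26.3% of the peaks (18.5 to 36), in 30% of other gene-proximal peaks and in 26.8% of TSS windows. SP/KLF was present in 15.8% (9.81 to 24.4), 23.6% and 12.1%, and the E-box in 10.5% (5.82 to 18.3), 8% and 5.49%. The letters of the TATA box, wherever they lay and on either strand, were present in 6.32% (2.93 to 13.1), 2.36% and 8.18%. At *Polr2a*, *Taf13* and *Taf4b* they read on the strand of the gene, centred at −27, −28 and −24 bp, and at *Gtf2f1* they did so at −123 bp. At *Taf6* and *Taf11* they read on the opposite strand, centred at −90 and −111 bp.

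NRF1 was present in 4.21%, 4.29% and 1.74% of the same 3 sets, in *Gtf2f1*, *Med4*, *Med15* and *Polr2j*. CRE was present in 4.21%, 3.32% and 1.94%, in *Gtf3c1*, *Med21*, *Taf2* and *Taf11*, from −95 to −11 bp. The THAP11/ZNF143 motif was present in 2.11% (0.579 to 7.35), 0.462% and 0.286%, in *Gtf2h4* and *Med11*. The YY1 motif was present in 3.16% (1.08 to 8.88), 3.73% and 1.98%, and in 7.37% when 200 bp centred on the genes' own TSSs were searched in place of the peaks. Its 3 carriers among the peaks, *Gtf2b*, *Taf5* and *Taf6*, had it on the strand of the gene at +47, +18 and +20 bp, downstream of the TSS in each case. No motif was present in 27 of the 95 peaks.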

How the data were processed

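The deposited file is 1 list of 13164 BAP1 peaks, given as start and end in bp, with no score. Per the labels, the authors used Bowtie 1.0.0, build mm9 and MACS 1.4.2, and per the study's methods peaks were called against input DNA of the same cells. The threshold, and the rule that joined the anti-BAP1 and anti-FLAG samples, are not given in the sources used here. A stricter threshold would shorten the list and lower the shares of bound genes. The 4th column numbers the peaks by distance to the nearest TSS (Spearman rho 0.852 across peaks), so it was not used as a measure of binding. The number of per-sample columns without a sample was 0.

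Peak positions were joined to GENCODE release M1 on NCBIM37, the Ensembl name of mm9, after checking that all 13164 peaks end within its chromosomes. The middle of a peak was taken as its start plus 100 bp, a gene-proximal peak had its middle within 1 kb of any annotated TSS of the gene, and genes of the mitochondrial chromosome were left out. Sequences were read from the reference genome. The promoter CpG ratio was the count of CpG times length over the product of C and G counts, in 500 bp on either side of the TSS of the longest transcript. With 1 pooled list there are no replicates, so no test was made, and shares are given with 95% Wilson intervals. Alternatives were other windows, the edge of the peak, other sets of TSSs, merging within 500 bp, other CpG limits and the TSS as the centre of the motif search.

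The genes named in detail were those without a peak, the largest subunits, the nearest and farthest peak of each family, those with the most peaks, all paralog pairs, and genes whose call changed with a setting. The sequences shown are a subset of those the same rule names, to limit their length. The gene set, the lists of paralogs and partner genes and the motifs were chosen with earlier results of these data known. Modules of Mediator and the other complexes were assigned from general knowledge. Protein identity between paralogs was not computed. H2AK119ub and RNA levels were not analysed here.

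The scripts were tested on simulated data. For 200 of 200 planted peaks the call as within or beyond the 1 kb window was right, with the signed distance where within. Of 900 planted motifs, 900 were recovered. The count of 8850 protein-coding genes with a peak and the 11415 merged peaks were the same with bedtools. Tools were matplotlib 3.10.9, bedtools 2.31.1, scipy 1.17.1, numpy 2.4.6 and Python 3.11.15.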

Additional observations from a re-analysis of the deposited data

How the results depend on the processing

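Of 103 values recomputed under alternatives, 101 stayed within 1.5 times the reported count, or within the interval of the reported share or median. Counts near their ceiling, such as 97 of 104, could not rise that far. For the CpG limits only counts were compared, 7980 genes at 0.5 and 5778 at 0.7 against 7268. The share of 70.2% was not recomputed at these limits. The number of genes with a gene-proximal peak was 96 with a 500 bp window (*Gtf3c6* lost) and with the TSSs of protein-coding transcripts only (1 identifier of *Med20* lost), and 97 with a 2 kb window, the edge of the peak, 1 TSS per gene or merged peaks. The share over all protein-coding genes ran from 37.6% to 40.4% under the same settings. Counting symbols or distinct nearest peaks, chosen after seeing the data, gave 95 each. The share with the YY1 motif was 7.37% in place of 3.16% when the search was centred on the TSS, within the interval of the latter. The median distance to the TSS became 0 bp when the edge of the peak was used, since most peaks cover their TSS, and the number of genes with 2 or more peaks fell to 3 when peaks within 500 bp were merged, since neighboring intervals become 1. A stricter peak threshold was not run, because the deposited list has no score. The study's supplement describes read intensities around each peak summit, and these were not used here. The unknown depth, the single list and the missing replicates limit every share given: a gene without a listed peak cannot be told from a gene with a weaker peak under the threshold, and how far each of the 2 antibodies supports a peak was not tested.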

Other observations

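Distal peaks inside the gene body, further than 1 kb from any annotated TSS, were listed at 7 of the 104 genes, with 1 peak each: *Gtf2a1*, *Gtf2i*, *Gtf2ird1*, *Med20*, *Polr1a*, *Polr2c* and *Taf2*. At *Med20* this held for the 72478 bp identifier and not for the shorter one. The genes were 16086 bp (*Polr2c*) to 99043 bp (*Gtf2ird1*) long. Of these 7, *Gtf2ird1* had no gene-proximal peak. These 7 are 6.73% of the genes (Wilson 95% interval 3.3 to 13.2), beside 4.28% (958 of 22367) of all protein-coding genes, so the background lies within the interval.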
